A study of Homo sapiens with 6 samples.

Results

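The replication-dependent histone genes were described as every row of the 6 per-library gene tables whose name starts with HIST, which gave 71 members of 21463 genes. Messenger RNA had been sequenced from 3 pairs of lines of human non-small cell lung cancer, all with activating EGFR mutations, with 1 library for each subline made resistant to an inhibitor of the EGFR kinase and 1 for its parental line. HCC827-GR was the gefitinib-selected subline of HCC827 (E19Del), PC9-GR the gefitinib-selected subline of PC9 (E19Del) and H1975-OR the osimertinib-selected subline of H1975 (L858R/T790M). Selection by rising drug concentrations lasted 90 days, and the parental lines were not treated. The half-maximal inhibitory concentrations given in the labels were 4.288 to 12.485 µM in the resistant sublines and 0.016 to 0.07 µM in the parental lines. The labels do not say whether a subline is 1 clone, or whether drug was present when RNA was taken. All 6 cultures were grown in RPMI-1640 with serum. The libraries were made with a stranded mRNA kit, which captures RNA by its poly(A) tail.

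Replication-dependent histone genes encode the core histones H2A, H2B, H3 and H4, around which DNA is wound, and the linker histone H1. They are transcribed in S phase, from clusters that gather in nuclear histone locus bodies under the coactivator NPAT, and supply histones for newly copied DNA. Their mRNAs mostly lack introns and a poly(A) tail and end just after a conserved stem-loop, which is bound by SLBP and cut with the U7 small nuclear ribonucleoprotein. Some members also make a longer, polyadenylated mRNA in cells that differentiate or leave the cell cycle. The 7 members HIST1H1C, HIST1H2AC, HIST1H2BC, HIST1H2BD, HIST1H2BJ, HIST1H2BK and HIST2H2BE were set apart as a polyadenylated list from such background knowledge, and the other 64 were compared beside them. A library made from polyadenylated RNA holds few of the stem-loop-ended mRNAs, so the levels below are those of the RNA it captured and not of all histone mRNA.

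The 55 HIST1 members lay on chromosome 6 (hg38, 25726132 to 27893843), the 12 HIST2 and 3 HIST3 members on chromosome 1, and HIST4H4 on chromosome 12. By subtype there were 6 H1, 17 H2A, 18 H2B, 15 H3 and 15 H4 genes. The stem-loop was searched for in the 200 bases after each stop codon of the 66 members whose identifiers are in GENCODE release 44 (hg38), on the sense strand, and was found in all 66 at 22 to 62 bases after the stop codon (median 35). The deposited identifiers of HIST2H3PS2, HIST2H2AA3, HIST2H2AA4, HIST1H3B and HIST1H3C were not matched. The genes that this release places at the same 5 rows, under newer identifiers, held the stem-loop in all 5 cases but are not among the 66. The same search found it in 4 of the 19975 protein-coding genes that are not members (0.0200%), 1 of which is the histone gene H2AX (H2AFX in the tables). The stem-loops of 8 members are shown because these members hold much of the signal or differed between the lines, with the 16 bases of stem and loop in capitals and 5 flanking bases on each side, as DNA of the sense strand.
HIST1H2AC: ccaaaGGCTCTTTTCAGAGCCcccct
HIST1H1C: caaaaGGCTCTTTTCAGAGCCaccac
HIST2H2BE: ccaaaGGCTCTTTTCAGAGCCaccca
HIST1H2BK: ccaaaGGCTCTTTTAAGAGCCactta
HIST1H2BD: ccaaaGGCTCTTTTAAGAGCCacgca
HIST1H3E: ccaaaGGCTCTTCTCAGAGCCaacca
HIST1H4H: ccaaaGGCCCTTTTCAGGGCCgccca
HIST2H4A: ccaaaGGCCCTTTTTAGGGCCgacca

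In hg38 the capitals of HIST1H2AC stand at chr6:26124669-26124684 (+), of HIST1H1C at chr6:26055744-26055759 (-), of HIST2H2BE at chr1:149886188-149886203 (-) and of HIST1H2BK at chr6:27146366-27146381 (-). Those of HIST1H2BD stand at chr6:26158587-26158602 (+), of HIST1H3E at chr6:26225596-26225611 (+), of HIST1H4H at chr6:26285131-26285146 (-) and of HIST2H4A at chr1:149833032-149833047 (+). The form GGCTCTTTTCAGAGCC was shared by 36 members, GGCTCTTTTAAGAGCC and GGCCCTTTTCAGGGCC by 10 each and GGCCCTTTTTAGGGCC by 4, and 6 other forms occurred once each. All 7 members of the polyadenylated list hold the element, as do the other 59 members searched.

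The deposited rows differ in whether they reach past the stem-loop. A limit of 100 bases, chosen after the data were seen, divided the 66 searched members. The 25 members whose rows run at least 100 bases past it held 68.8% of all histone exon reads, with a median of 2.90 TPM (the mean over 6 libraries, read counts scaled for exon length and depth). The 41 members whose rows do not reach that far held 24.1% of the reads, with a median of 0.271 TPM. Of the 25 long rows 17 reached 2 CPM (read counts divided by the TMM-scaled library size) in at least 1 library and 0 had 10 or fewer reads in all 6 libraries together. Of the 41 short rows 3 reached 2 CPM and 28 had 10 or fewer reads. HIST1H2BK and HIST1H1C, both on the polyadenylated list, were the highest of all 71 members per length at 90.9 and 56.7 TPM, although their rows end 36 and 27 bases before the stem-loop begins. Long rows exist only where longer transcripts had been annotated, so the extent of a row and the level of its gene are not independent measures.

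**Figure D1:**
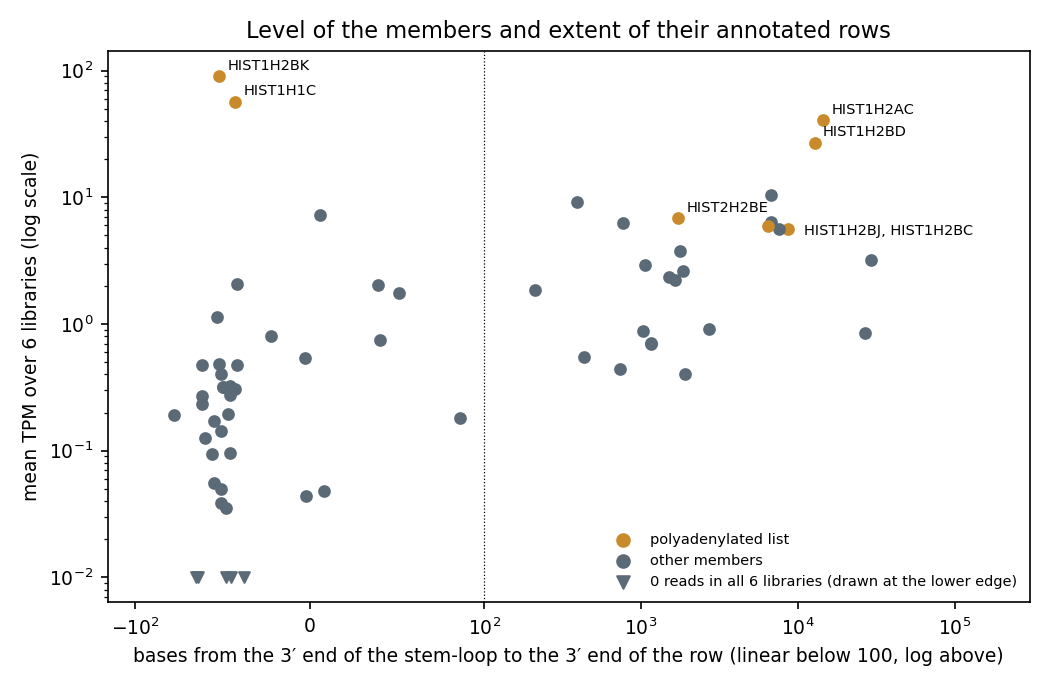
Each point is 1 of the 66 members with a stem-loop: the x axis gives the bases from the 3′ end of the stem-loop to the 3′ end of its deposited row (negative where the row ends before or within the stem-loop), and the y axis the mean TPM over the 6 libraries on a log scale. The dotted line marks 100 bases; HIST1H2BK and HIST1H1C stand at the upper left at 90.9 and 56.7 TPM, and the 28 members with 10 or fewer reads all lie left of the line.

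Reads counted by the authors as crossing an exon-exon border gave a second view of the longer transcripts. Of the 12 members with more than 1 annotated exon 11 had such reads, 1155 in all, and the 59 members with 1 exon had 0. HIST1H2AC, a core H2A gene whose row runs to 26139116 on chromosome 6, 14432 bases past its stem-loop, held 353 of them, 9.44% of its exon reads. In HIST1H2BD they were 308 reads or 25.4%, and in HIST1H2BC 85 reads or 32.4%. Outside the polyadenylated list they were 160 reads or 13.8% in HIST2H4A and 92 or 14.3% in HIST1H4H. HIST2H4B had 44 or 6.31%, HIST1H3E 35 or 9.16% and HIST1H2BN 23 or 9.09%. HIST4H4 had 4, HIST2H2BF 1 and HIST1H2BE 0. Spliced transcripts were thus part of the signal of members on the list and of members outside it. HIST1H2BK and HIST1H1C have 1 exon each, yet 1434 and 531 reads were deposited for them as intronic, beside 1931 and 1977 exon reads; what these reads are was not tested.

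Histone mRNA was a small part of every library. The 71 members took 0.00854% of exon reads in HCC827-GR and 0.0134% in HCC827, 0.00858% in PC9-GR and 0.00638% in PC9, and 0.0137% in H1975-OR and 0.0226% in H1975. No member passed 43.3 CPM in any library, 22 reached 2 CPM in at least 1 library, 5 did so in all 6, and 5 had no read at all (HIST1H2AA, HIST1H2BA, HIST1H2BB, HIST1H4G and HIST1H4K). Over the 6 libraries 28 members had 10 or fewer reads. Among these were HIST1H1T, HIST1H2AA, HIST1H2BA and HIST3H3, which are known as testis forms. Libraries held 21222102 to 29366085 exon reads, so a count of 0 allows a level of up to 0.0985 to 0.145 CPM (3 counts, counting error only). Where genes are near-identical, a 0 can also rest on how shared reads were assigned, as for HIST2H2AA3 in H1975-OR and H1975. This was not examined for HIST1H4K.

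The summed level of the 71 members was lower in HCC827-GR and H1975-OR than in their parental lines and higher in PC9-GR than in its own. It was 94.0 CPM in HCC827-GR and 137.6 CPM in HCC827, a log2 ratio of -0.55 (95% exact binomial interval -0.62 to -0.48). In PC9-GR it was 88.0 CPM and in PC9 65.7 CPM, a log2 ratio of 0.42 (0.32 to 0.52). The sums were 129.9 CPM in H1975-OR and 203.5 CPM in H1975, a log2 ratio of -0.65 (-0.71 to -0.59). With 1 library for each state of a line these differences have no replicate check, and the intervals, from the exact binomial method (Clopper-Pearson), cover counting error only. In bulk RNA, fewer cells in S phase and less histone mRNA in each such cell cannot be told apart, nor can a change in how much of it was polyadenylated.

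Summed over total exon reads, the polyadenylated list and the other members moved by about as much in each pair. In HCC827 this rested in part on HIST2H4A and HIST2H4B, few of whose reads mapped uniquely. They held 504 of 1361 reads of the other members in HCC827-GR and 559 of 2065 in HCC827, with a log2 ratio of -0.11. With uniquely mapping reads the ratio of the other members in HCC827 lay further below 0, as given in the closing section. The 7 listed members summed to 43.0 CPM in HCC827-GR and 62.4 CPM in HCC827, a log2 ratio of -0.54 (-0.65 to -0.43), and the other 64 to 51.0 and 75.3 CPM, a log2 ratio of -0.56 (-0.66 to -0.46). In PC9 the log2 ratio was 0.38 (0.26 to 0.50) for the list, from 62.3 CPM in PC9-GR and 47.9 CPM in PC9, and 0.53 (0.34 to 0.72) for the others, from 25.7 and 17.8 CPM. In H1975 both ratios were -0.65, from 73.1 CPM in H1975-OR and 114.5 CPM in H1975 for the list and 56.8 and 89.0 CPM for the others. The share of histone reads that fell on the list was therefore close within each pair, at 45.7% in HCC827-GR and 45.3% in HCC827, 70.8% in PC9-GR and 72.9% in PC9, and 56.3% in both H1975-OR and H1975. Between lines it differed more than between states. Whether the 64 other members were read from polyadenylated transcripts as well was not tested; 20 of the 25 long rows belong to them, and the summed log2 ratio of these 20 was -0.46 for HCC827, 0.72 for PC9 and -0.64 for H1975. The 39 short rows outside the list summed to few reads, 38 in PC9-GR and 44 in PC9, and had log2 ratios of -0.97 (-1.34 to -0.60), -0.42 (-1.09 to 0.24) and -0.49 (-0.93 to -0.06). In PC9 their value was thus below 0, with an interval that spanned 0, so the higher sum of the other members in PC9-GR came from the long rows and from members not among the 66.

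**Figure D2:**
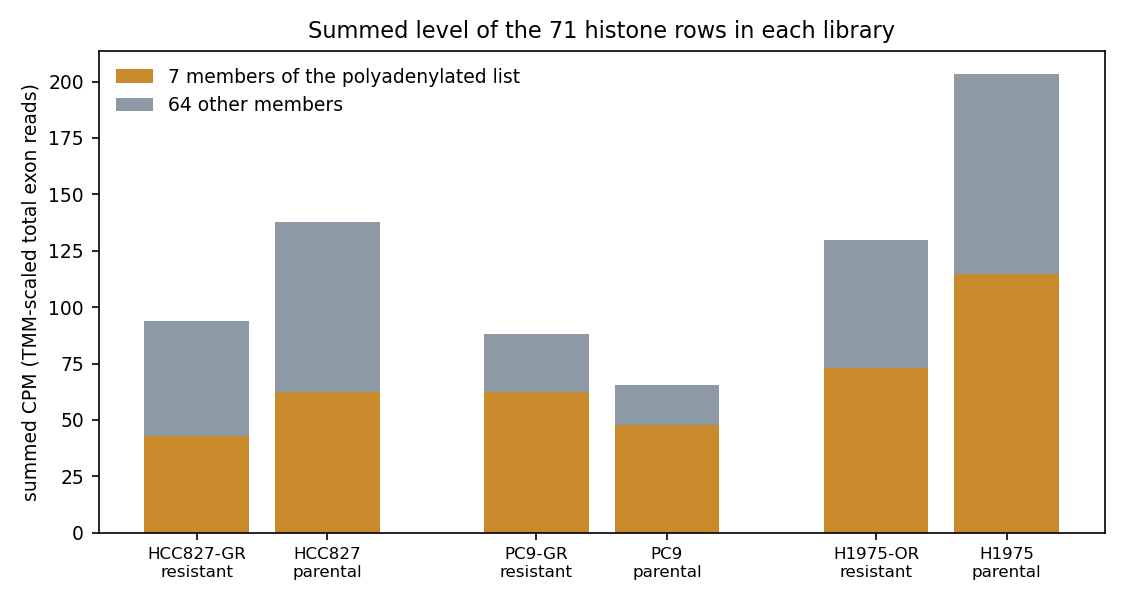
Bars give the summed CPM of the 71 histone members in each of the 6 libraries, resistant subline left of its parental line, with the 7 members of the polyadenylated list below and the 64 others above. HCC827-GR (94.0 CPM) and H1975-OR (129.9 CPM) stand below their parental lines and PC9-GR (88.0 CPM) above its own, with both blocks of each bar moving the same way.

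HIST1H2AC was the member with the highest CPM over the 6 libraries and the only one with at least 10 CPM in every library. It had 18.4 CPM in HCC827-GR and 24.5 CPM in HCC827, 15.9 CPM in PC9-GR and 13.0 CPM in PC9, and 29.9 CPM in H1975-OR and 43.3 CPM in H1975. H1975 was high and PC9 low in both states, and the values of the 3 resistant sublines overlapped those of the parental lines. The log2 ratios were -0.41 (-0.58 to -0.24) in HCC827, 0.29 (0.06 to 0.52) in PC9 and -0.53 (-0.67 to -0.40) in H1975. Over the 3 lines it averaged 21.4 ± 7.46 CPM in the resistant sublines and 26.9 ± 15.3 CPM in the parental lines (SD, n = 3 each).

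HIST1H1C, which encodes the linker histone H1.2, held nearly all of the H1 signal. Its level was 8.02 CPM in HCC827-GR and 14.7 CPM in HCC827, 9.48 CPM in PC9-GR and 9.74 CPM in PC9, and 11.9 CPM in H1975-OR and 24.2 CPM in H1975. It was thus the listed member that did not share the higher level of PC9-GR, with a log2 ratio of -0.04 (-0.32 to 0.24) there, against -0.88 (-1.12 to -0.63) in HCC827 and -1.02 (-1.21 to -0.83) in H1975. The other 5 H1 genes together had 5 to 24 reads in a library.

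HIST1H2BK, an H2B gene, departed from the list in the other direction. It had 8.10 CPM in HCC827-GR and 8.60 CPM in HCC827, 20.6 CPM in PC9-GR and 16.4 CPM in PC9, and 13.2 CPM in H1975-OR and 10.5 CPM in H1975. The interval of its log2 ratio spanned 0 in HCC827, at -0.09 (-0.36 to 0.19), and lay above 0 in PC9 and H1975, at 0.33 (0.13 to 0.54) and 0.33 (0.10 to 0.57). Among the 19 members with at least 2 CPM in H1975-OR or H1975 it was the only one with a higher level in H1975-OR.

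HIST1H2BD, another H2B gene of the list, had 1.65 CPM in HCC827-GR and 2.77 CPM in HCC827, 9.44 CPM in PC9-GR and 4.27 CPM in PC9, and 9.79 CPM in H1975-OR and 20.5 CPM in H1975. Its log2 ratios were -0.75 (-1.32 to -0.19), 1.15 (0.78 to 1.52) and -1.06 (-1.28 to -0.85), with every interval clear of 0. Exon-exon reads made up 22.7% of its exon reads in HCC827-GR and 22.4% in HCC827, 33.3% in PC9-GR and 34.1% in PC9, and 20.8% in H1975-OR and 23.7% in H1975, so the share differed less between the states of a line than between PC9 and the other lines.

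HIST2H2BE, HIST1H2BC and HIST1H2BJ completed the list at lower levels. HIST2H2BE had 5.55 CPM in HCC827-GR and 6.01 CPM in HCC827, 2.60 CPM in PC9-GR and 2.23 CPM in PC9, and 5.06 CPM in H1975-OR and 10.5 CPM in H1975, and of its 3 ratios the interval excluded 0 in H1975 alone, at -1.05 (-1.35 to -0.76). HIST1H2BC had 0.562 CPM in HCC827-GR and 3.43 CPM in HCC827, 1.59 CPM in PC9-GR and 1.02 CPM in PC9, and 0.985 CPM in H1975-OR and 2.72 CPM in H1975. Its log2 ratio of -2.61 (-3.50 to -1.81) in HCC827 was the lowest of the list. HIST1H2BJ had 0.675 CPM in HCC827-GR and 2.33 CPM in HCC827, 2.68 CPM in PC9-GR and 1.21 CPM in PC9, and 2.23 CPM in H1975-OR and 2.97 CPM in H1975, with log2 ratios of -1.79 (-2.63 to -1.02), 1.15 (0.46 to 1.88) and -0.41 (-0.92 to 0.09).

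**Figure D3:**
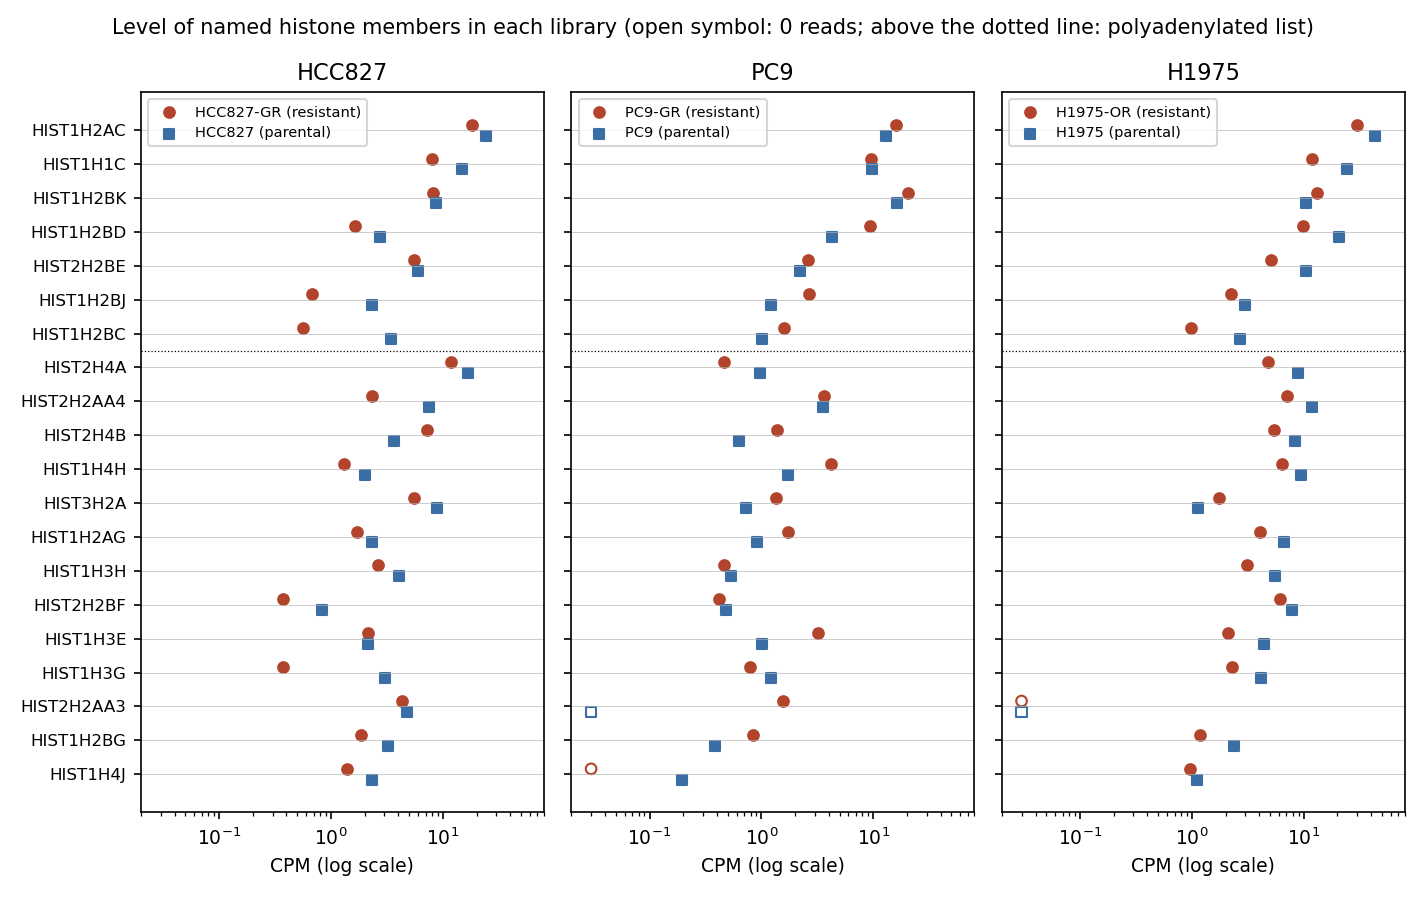
CPM on a log scale of the 20 named members in each library, 1 panel per cell line, with circles for the resistant subline and squares for the parental line; open symbols at the left edge stand for 0 reads. The 7 members above the dotted line are the polyadenylated list. Most circles lie left of their squares in HCC827 and H1975, and right of them in PC9.

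Among the H2A and H2B genes outside the list, the near-identical HIST2H2AA3 and HIST2H2AA4 could not be separated, because 0% and 4.0% of their exon reads mapped uniquely. HIST2H2AA3 held 37 reads in PC9-GR and 0 in PC9, and 0 in both H1975-OR and H1975, which shows how unevenly the authors' counting split the pair. Their sum was 6.60 CPM in HCC827-GR and 12.4 CPM in HCC827, 5.20 CPM in PC9-GR and 3.54 CPM in PC9, and 7.09 CPM in H1975-OR and 11.8 CPM in H1975. The log2 ratios of the sum were -0.90 (-1.18 to -0.64), 0.56 (0.13 to 0.99) and -0.73 (-1.0 to -0.47), the same directions as those of all members together.

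HIST3H2A, an H2A gene of the small cluster on the long arm of chromosome 1, was mostly an HCC827 transcript. It had 5.51 CPM in HCC827-GR and 8.86 CPM in HCC827, 1.34 CPM in PC9-GR and 0.727 CPM in PC9, and 1.74 CPM in H1975-OR and 1.15 CPM in H1975. The interval of its ratio excluded 0 in HCC827, at -0.68 (-0.99 to -0.38), and spanned 0 in PC9 and H1975, at 0.88 (-0.04 to 1.88) and 0.60 (-0.09 to 1.33).

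HIST1H2AG, also an H2A gene, had 1.72 CPM in HCC827-GR and 2.33 CPM in HCC827, 1.72 CPM in PC9-GR and 0.921 CPM in PC9, and 4.04 CPM in H1975-OR and 6.71 CPM in H1975. The H2B gene HIST1H2BG had 1.84 CPM in HCC827-GR and 3.21 CPM in HCC827, 0.839 CPM in PC9-GR and 0.388 CPM in PC9, and 1.18 CPM in H1975-OR and 2.38 CPM in H1975. HIST2H2BF, whose row overlaps FCGR1A on the other strand, was largely an H1975 signal, with 6.14 CPM in H1975-OR and 7.81 CPM in H1975 and 0.375 to 0.838 CPM in the other 4 libraries. Summed over each subtype outside the list, the H2A genes differed by a log2 ratio of -0.79 for HCC827, 0.66 for PC9 and -0.62 for H1975, and the H2B genes had -0.79, 0.69 and -0.65. In PC9 the H2B difference depends on the scale, since per length these genes summed to 3.69 TPM in PC9-GR and 3.70 TPM in PC9.

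The 15 H3 genes summed to 6.41 CPM in HCC827-GR and 11.3 CPM in HCC827, 4.99 CPM in PC9-GR and 4.02 CPM in PC9, and 9.59 CPM in H1975-OR and 17.4 CPM in H1975. Per length they were the lowest core subtype in every library, at 6.32 to 23.0 TPM in the resistant sublines and 9.55 to 44.3 TPM in the parental lines. In PC9 the direction of the H3 sum depends on the scale, at 6.32 TPM in PC9-GR and 9.55 TPM in PC9, and the interval of the CPM ratio there spanned 0, at 0.31 (-0.10 to 0.73). HIST1H3E was higher in PC9-GR, at 3.19 CPM in PC9-GR and 1.02 CPM in PC9, a log2 ratio of 1.65 (0.93 to 2.42). The same gene had 2.14 CPM in HCC827-GR and 2.15 CPM in HCC827, and 2.10 CPM in H1975-OR and 4.46 CPM in H1975. HIST1H3G had 0.375 CPM in HCC827-GR and 3.02 CPM in HCC827, 0.797 CPM in PC9-GR and 1.21 CPM in PC9, and 2.27 CPM in H1975-OR and 4.16 CPM in H1975. Its log2 ratio in HCC827 was -3.01 (-4.12 to -2.06), the lowest of the 20 members shown in the plots of levels and ratios. HIST1H3H had 2.62 CPM in HCC827-GR and 4.05 CPM in HCC827, 0.461 CPM in PC9-GR and 0.533 CPM in PC9, and 3.12 CPM in H1975-OR and 5.52 CPM in H1975, lower in each resistant subline but within counting error in PC9.

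Among the H4 genes, most of which encode the same protein, HIST2H4A and HIST2H4B are near-identical, with 7.09% and 0.287% of their exon reads mapping uniquely. Taken singly they pointed apart in HCC827, where HIST2H4B had 7.16 CPM in HCC827-GR and 3.64 CPM in HCC827 and HIST2H4A had 11.7 and 16.7 CPM. Their sum was 18.9 CPM in HCC827-GR and 20.4 CPM in HCC827, a log2 ratio of -0.11 (-0.28 to 0.07), so the directions of the single genes in that pair rest on how shared reads were assigned. The sum was 1.85 CPM in PC9-GR and 1.60 CPM in PC9, and 10.2 CPM in H1975-OR and 17.1 CPM in H1975, with log2 ratios of 0.21 (-0.48 to 0.90) and -0.75 (-0.97 to -0.53). The row of HIST2H4A also overlaps HIST2H3C, and that of HIST2H4B overlaps HIST2H3A, each on the other strand.

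HIST1H4H was the H4 gene with the widest swing among those read uniquely. It had 1.31 CPM in HCC827-GR and 2.0 CPM in HCC827, 4.19 CPM in PC9-GR and 1.74 CPM in PC9, and 6.34 CPM in H1975-OR and 9.51 CPM in H1975. The log2 ratios were -0.61 (-1.27 to 0.03), 1.27 (0.70 to 1.86) and -0.58 (-0.87 to -0.30). HIST1H4J had 1.39 CPM in HCC827-GR and 2.33 CPM in HCC827, 0 reads in PC9-GR and 4 reads in PC9, and 0.952 CPM in H1975-OR and 1.10 CPM in H1975, with 48.1% of its reads mapping uniquely. Summed over all 15 H4 genes the log2 ratio was -0.19 in HCC827, 0.54 in PC9 and -0.56 in H1975. The 6 H1 genes together had -0.93, -0.06 and -1.01 in the same order of lines.

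**Figure D4:**
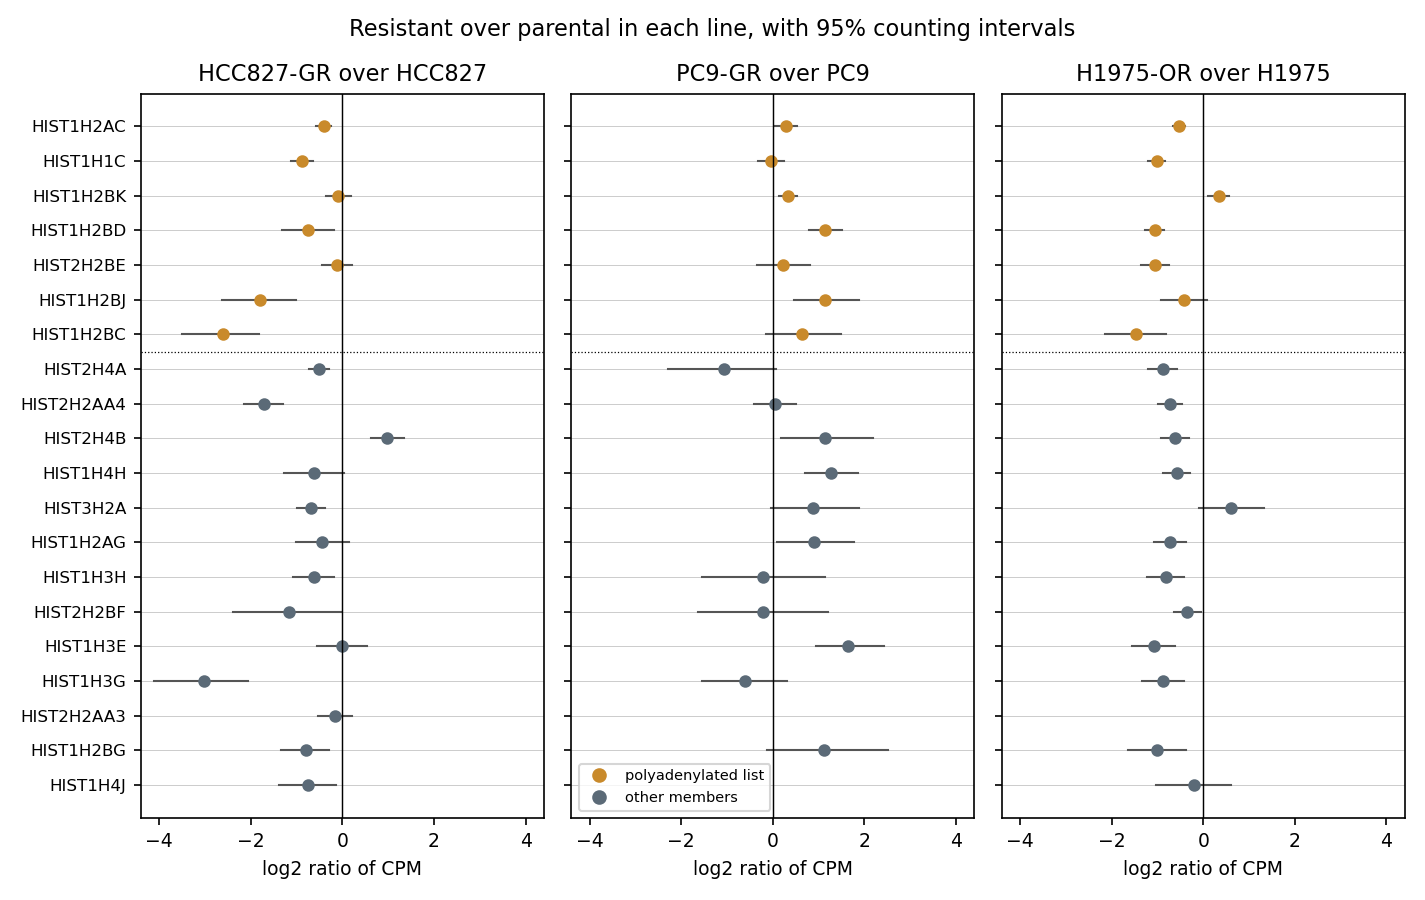
Log2 ratio of CPM, resistant over parental, of the 20 named members in each cell line, with 95% exact binomial intervals that cover counting error only; the polyadenylated list stands above the dotted line. Points of members with 0 reads in a library are left out. HIST1H2BD, HIST1H2BJ, HIST1H3E and HIST1H4H lie right of 0 in PC9 at 1.15, 1.15, 1.65 and 1.27, and left of 0 in H1975; in HCC827 HIST1H3E stands at -0.01 and the other 3 lie left of 0.

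Counted within each line over the members that reached 2 CPM in the line, with 0.5 CPM added to both libraries, most shared a direction. In HCC827 19 of 20 members were lower in HCC827-GR, beside 50.7% of all genes under the same filter, and 1 was higher, beside 49.3%, with a median log2 ratio of -0.56 for the members and -0.01 for all genes. In PC9 8 of 9 members were higher in PC9-GR, beside 49.4% of all genes, and 1 was lower, beside 50.6%, with medians of 0.32 and 0.00. In H1975 18 of 19 members were lower in H1975-OR, beside 45.8% of all genes, and 1 was higher, beside 54.2%, with medians of -0.73 and 0.04. The exceptions were HIST2H4B in HCC827, HIST1H1C in PC9 and HIST1H2BK in H1975. These counts are a description, because a member that reached 2 CPM in 1 library of the pair alone had to differ in that direction: 9 of the 20 did so in HCC827 alone and 0 in HCC827-GR alone, 3 of the 9 in PC9-GR alone and 0 in PC9 alone, and 2 of the 19 in H1975 alone and 0 in H1975-OR alone. Another filter, a mean of at least 2 CPM over the 6 libraries, was added after the data were seen. It includes both libraries of the pair, so a member can still pass through the line where it is high, as HIST2H2BF did through H1975. By this filter 15 members passed. Of these, 14 were lower in HCC827-GR, beside 50.8% of all genes, 11 were higher in PC9-GR, beside 48.9%, and 13 were lower in H1975-OR, beside 46.4%, with medians of -0.49, 0.32 and -0.67.

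Differences of at least 2-fold were fewer. In HCC827 HIST2H2AA4, HIST1H2BC, HIST1H2BH, HIST1H3G and HIST1H2BJ were at least 2-fold lower in HCC827-GR, 5 of 20 members beside 9.68% of all genes, and 0 members were at least 2-fold higher, beside 11.8% of all genes. HIST2H2AA4 could not be separated from HIST2H2AA3, and the log2 ratio of their sum there, -0.90, falls short of 2-fold. In PC9 HIST1H2BD, HIST1H3E and HIST1H4H were at least 2-fold higher in PC9-GR, 3 of 9 members beside 4.05%, and 0 were lower, beside 2.47%. In H1975 HIST1H2BC and HIST1H2BD were at least 2-fold lower in H1975-OR, 2 of 19 members beside 5.1%, and 0 were higher, beside 2.52%. HIST1H2BC, HIST1H2BH, HIST1H3G and HIST1H2BJ in HCC827, HIST1H3E and HIST1H4H in PC9 and HIST1H2BC in H1975 reached 2 CPM only in the library of the pair where they were higher. With the mean of at least 2 CPM over the 6 libraries 2 of 15 were lower in HCC827-GR (HIST2H2AA4 and HIST1H2BJ), beside 9.1% of all genes. In PC9-GR 3 of 15 were higher, beside 3.42%, and in H1975-OR 1 of 15 was lower, beside 5.1%. With at least 5 CPM asked in either library each of these 3 counts was 1.

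Taken over the 3 lines, no difference between resistant and parental libraries was called for any member. Of the 71 members 30 passed the filter on low counts and were tested. The quasi-likelihood test of edgeR, with the cell line as a block, called 0 of these 30 at a Benjamini-Hochberg adjusted p under 0.05, beside 0.0% of the 13541 genes tested. At an unadjusted p under 0.05 edgeR had 0 members beside 3.71% of all genes, DESeq2 had 0 beside 6.82%, and limma-voom had 0 beside 5.63%. DESeq2 called 0 members and 0.428% of all genes after adjustment, and limma-voom called 0 members and 0.0%. The smallest p of a member was that of HIST2H4A, with a log2 fold change of -0.80 ± 0.33 (SE), an unadjusted p of 0.0614 and an adjusted p of 0.903 in edgeR. The fit leaves 2 residual degrees of freedom.

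The largest fold change toward lower levels was that of HIST1H3G, at -1.44 ± 0.67 (SE, log2, edgeR adjusted p of 0.903). HIST1H1C was at -0.65 ± 0.32 and HIST1H2BC at -1.16 ± 0.80, both with an edgeR adjusted p of 0.903. The largest toward higher levels, 1.88 ± 1.84, was that of HIST2H2AA3, whose reads were split unevenly with HIST2H2AA4. HIST1H2BK was at 0.19 ± 0.26, HIST1H2AC at -0.22 ± 0.26 and HIST1H4H at 0.00 ± 0.60, the last of these the mean of opposite movements. By direction alone 9 of the 30 tested members were lower in all 3 resistant sublines, beside 13.5% of all genes, and 0 were higher in all 3, beside 14.3%. A higher level in PC9-GR with lower levels in HCC827-GR and H1975-OR was shown by 12 of the 30, beside 10.7% of all genes. HIST1H2AC, HIST1H2BC, HIST1H2BD, HIST1H2BJ and HIST2H2BE of the polyadenylated list were among these 12, with HIST1H2AG, HIST1H2BE, HIST1H2BG, HIST1H3E, HIST1H4H, HIST2H2AA4 and HIST2H3C. HIST2H3A was among the 9, but 0% of its reads and those of HIST2H3C mapped uniquely. Their sum had a log2 ratio of 0.15 (-1.44 to 1.81) in PC9. The 9 also held HIST2H4A, whose sum with HIST2H4B had 0.21 (-0.48 to 0.90) in PC9, and HIST1H2AE, with few reads there.

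Many H2A and H2B genes stand head to head and share the stretch of DNA between their starts. RefSeq promoters (GRCh38.p14, 250 bases before to 50 after each start) were found for 61 members and searched on both strands for TATAAA, the TATA box, for CCAAT, which is bound by NF-Y, and for ATTTGCAT, the octamer that is bound by OCT1 and is a known element of H2B promoters. TATAAA was present in 67.2% of the members' promoters and in 12.1% of all 27305 promoters, CCAAT in 83.6% and 35.6%, and ATTTGCAT in 41.0% and 1.82%. The octamer stood in 11 of 14 H2A and 14 of 18 H2B promoters and in 0 of the H1, H3 and H4 promoters, which number 6, 10 and 13. The H2A and H2B counts are not independent, since head-to-head genes can hold the same octamer, as HIST1H2AC and HIST1H2BC do. Of the 7 listed members 6 held TATAAA, 7 CCAAT and 5 the octamer. A match was counted at any place and on either strand of the window, so it need not be the TATA box of that gene. One site between head-to-head genes was counted for both. The only TATAAA match of HIST1H2BC, for example, is the site of HIST1H2AC read on the other strand. Matches can share letters, between different motifs and between copies of TATAAA on opposite strands. The promoter of HIST1H2AC, the member with the highest CPM, is shown with every match in capitals (GRCh38.p14, chr6:26123922-26124221, + strand).
HIST1H2AC promoter: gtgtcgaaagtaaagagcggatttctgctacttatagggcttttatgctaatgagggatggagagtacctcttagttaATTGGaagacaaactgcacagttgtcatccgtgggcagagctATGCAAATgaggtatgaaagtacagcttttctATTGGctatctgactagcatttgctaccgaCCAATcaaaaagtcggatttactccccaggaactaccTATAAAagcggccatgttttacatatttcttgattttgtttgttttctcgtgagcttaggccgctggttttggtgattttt

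The same stretch serves HIST1H2BC on the other strand, and the windows of the pair share 255 bases. There were 11 such head-to-head pairs, found after the data were seen, and in 3 of them both members passed the filter on low counts. HIST1H2AC and HIST1H2BC had log2 ratios of -0.41 and -2.61 in HCC827, 0.29 and 0.65 in PC9, and -0.53 and -1.46 in H1975, the same direction in each line but not the same size. HIST1H2AG and HIST1H2BJ, whose windows share 253 bases, had -0.44 and -1.79 in HCC827, 0.90 and 1.15 in PC9, and -0.73 and -0.41 in H1975. HIST1H2AE and HIST1H2BG parted in PC9, at -0.21 and 1.11, where HIST1H2AE had few reads (0.0419 CPM in PC9-GR and 0.0485 CPM in PC9).

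Genes of S phase were set beside the histones. All 20 listed genes were measured, among them PCNA, the sliding clamp of DNA polymerase, and MCM7, a subunit of the replicative helicase. In HCC827 18 of the 20 were lower in HCC827-GR, beside 50.7% of all genes. Their median log2 ratio was -0.47, close to that of the histone members at -0.56. In PC9 19 of the 20 were lower in PC9-GR, beside 50.6% of all genes, with a median of -0.23, while the histone members had a median of 0.32. In H1975 14 of the 20 were higher in H1975-OR, beside 54.2% of all genes, with a median of 0.14, while the histone members had a median of -0.73. The medians of the S-phase genes and of the histone members thus had the same sign in HCC827 and opposite signs in PC9 and H1975. Some histone members passed the 2 CPM filter only through the library where they were higher, which shifts their medians. With a mean of at least 2 CPM over the 6 libraries these were -0.49, 0.32 and -0.67, and those of the S-phase genes were unchanged.

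MCM7 had 179.9 CPM in HCC827-GR and 395.6 CPM in HCC827, 195.6 CPM in PC9-GR and 259.5 CPM in PC9, and 277.8 CPM in H1975-OR and 298.2 CPM in H1975. PCNA had 170.1 CPM in HCC827-GR and 181.3 CPM in HCC827, 175.4 CPM in PC9-GR and 229.0 CPM in PC9, and 433.7 CPM in H1975-OR and 398.2 CPM in H1975. Without regard to length, MCM7 and PCNA each took more reads than all 71 histone members together in every library. Of the 20 genes edgeR called 0 over the 3 lines and DESeq2 called 0, beside 0.0% and 0.428% of all genes tested. At an unadjusted p under 0.05 edgeR had 0 and DESeq2 had 2, beside 3.71% and 6.82% of all genes.

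The 19 matched genes that make and process histone mRNA had median log2 ratios nearer to 0, at -0.18 for HCC827, -0.07 for PC9 and 0.07 for H1975. SLBP, the stem-loop binding protein, had 112.2 CPM in HCC827-GR and 97.4 CPM in HCC827, 104.5 CPM in PC9-GR and 143.0 CPM in PC9, and 59.9 CPM in H1975-OR and 57.5 CPM in H1975. NPAT, named for its role after its values were seen, had 22.2 CPM in HCC827-GR and 22.4 CPM in HCC827, 18.2 CPM in PC9-GR and 25.9 CPM in PC9, and 69.3 CPM in H1975-OR and 61.4 CPM in H1975. CPSF3, the endonuclease that cuts histone and other pre-mRNAs, was chosen in the same way and was lower in each resistant subline, with a log2 fold change of -0.59 ± 0.19 (SE) and an edgeR adjusted p of 0.903. For the 10 histone chaperones, which carry histones to and from DNA, the medians were -0.21 in HCC827, -0.13 in PC9 and 0.44 in H1975. SSRP1, a subunit of the FACT chaperone, had 322.3 CPM in HCC827-GR and 413.5 CPM in HCC827, 277.1 CPM in PC9-GR and 365.0 CPM in PC9, and 332.9 CPM in H1975-OR and 254.8 CPM in H1975. Over the 3 lines edgeR and DESeq2 each called 0 genes of these lists, beside 0.0% and 0.428% of all genes tested. At an unadjusted p under 0.05 each had 1 processing gene and 0 chaperones, beside 3.71% of all genes in edgeR and 6.82% in DESeq2.

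Replication-independent histones, most of whose mRNAs are polyadenylated and made also outside S phase, had medians below 0 in every line; H2AFX of this list also makes a stem-loop-ended mRNA. Of the 12 listed genes 10 had at least 2 CPM, with a median log2 ratio of -0.55 for HCC827, -0.31 for PC9 and -0.23 for H1975. H1F0, the linker histone H1.0 of slowly dividing and differentiated cells, had 148.8 CPM in HCC827-GR and 380.0 CPM in HCC827, 138.9 CPM in PC9-GR and 221.4 CPM in PC9, and 122.9 CPM in H1975-OR and 236.5 CPM in H1975. All 3 resistant sublines lay below all 3 parental lines. Its log2 fold change was -0.99 ± 0.21 (SE), with an edgeR adjusted p of 0.903 and a DESeq2 adjusted p of 0.0206, so the 2 tools parted on it. H1F0 was the 1 gene of all these lists that DESeq2 called, beside 0.428% of all genes tested. Without regard to length, H1F0 alone took more reads than the 71 replication-dependent members together in 5 of the 6 libraries.

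**Figure D5:**
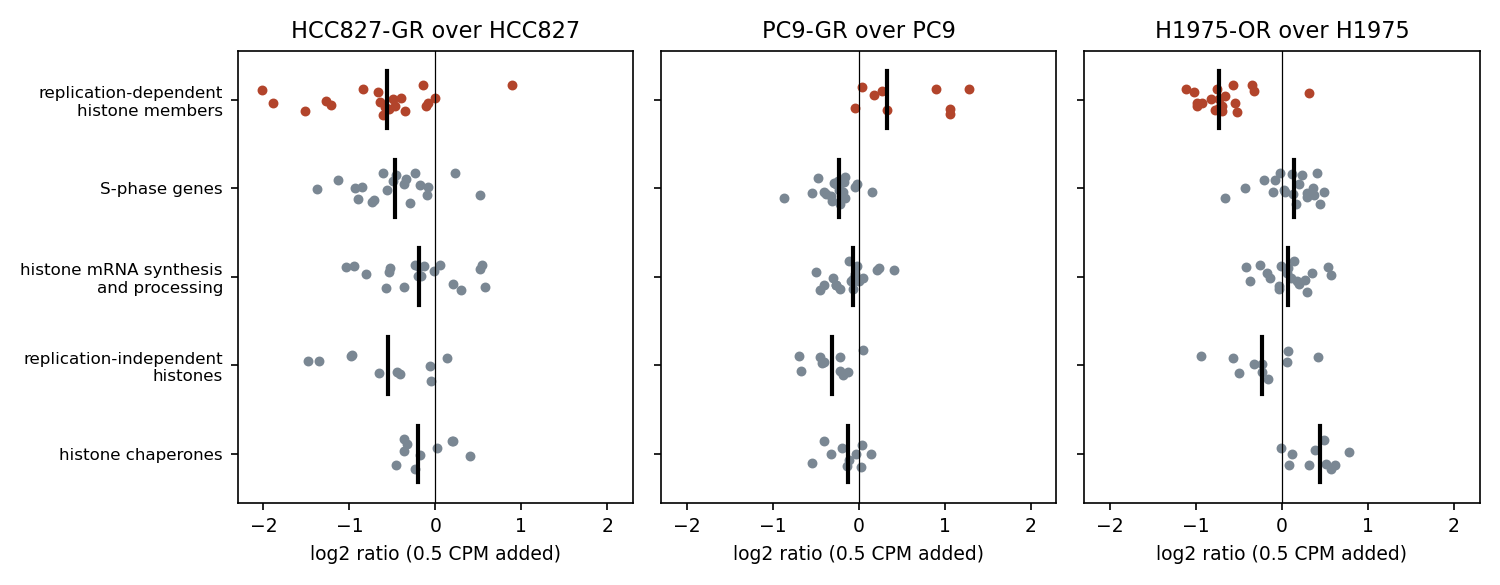
Log2 ratios, resistant over parental with 0.5 CPM added, for 5 gene lists, over genes that reach 2 CPM in a line: replication-dependent histone members, S-phase genes, histone mRNA synthesis and processing, replication-independent histones and histone chaperones. Black bars are medians. Some histone members passed this filter only through the library where they were higher. The histone members lie mostly left of 0 in HCC827 and H1975 (medians -0.56 and -0.73) and right of it in PC9 (0.32), and the S-phase genes have medians of -0.47 for HCC827, -0.23 for PC9 and 0.14 for H1975.

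Other features of the libraries moved with the pairs. The uniquely mapping share of all exon reads was 90.8% to 91.7%, and that of histone reads was 71.1% in HCC827-GR and 74.4% in HCC827, 90.5% in PC9-GR and 90.4% in PC9, and 85.4% in H1975-OR and 85.2% in H1975. The epithelial markers KRT8 and KRT18 ranged over the libraries from 841 to 4082 and from 508 to 3277 CPM. The epithelial adhesion genes EPCAM and CDH1 were at 10.6 and 22.1 CPM in HCC827-GR and at 432.5 and 466.9 CPM in HCC827, and at 0.460 and 0.131 CPM in H1975-OR and 26.6 and 22.4 CPM in H1975. They were at 732.5 and 150.8 CPM in PC9-GR and 745.4 and 213.2 CPM in PC9. By ratio EPCAM, CDH1, KRT18 and KRT19 differed least in the PC9 pair, the pair in which the histone members were higher. KRT8 did not, at 1729 CPM in PC9-GR and 2659 CPM in PC9, and 841 CPM in H1975-OR and 1198 CPM in H1975. The part of these differences in the histone levels was not tested. Of the leukocyte markers, CD68 had 123.7 to 175.4 CPM in the resistant sublines and 51.1 to 130.0 CPM in the parental lines, PTPRC, which defines leukocytes, was at 0 to 0.419 CPM over the 6 libraries and the T-cell gene CD3E at 0 to 0.194 CPM. The 4 fibroblast markers summed to 18 to 213.7 CPM in the resistant sublines and 14.8 to 87.6 CPM in the parental lines with DCN at 0 to 0.112 CPM, and the 3 endothelial markers to 0.900 to 5.71 CPM in the resistant sublines and 0.802 to 20.2 CPM in the parental lines.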

How the data were processed

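The authors deposited, for each of the 6 libraries, whole-number counts of total, uniquely mapping, exon-exon and intronic reads per gene, without normalization per the file headers. The authors also deposited TPM values in the same tables, which per the file headers scale total exon reads by exon length. Trimmomatic, Bowtie2 and the build hg38 are named, without versions, per the submitters' processing notes; the tool that counted reads and its use of strand are not given in the sources used. Per the labels' protocols, RNA was taken up with GENEzol and libraries were made with a TruSeq stranded mRNA kit. The symbols and hg38 positions of the rows were used as deposited, and GENCODE release 44, also hg38, held the identifiers of 66 of the 71 members, all 66 overlapping their deposited rows on the same strand.

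Total exon reads were the main values. They were tested with the quasi-likelihood test of edgeR 4.0.16 (R 4.3.3) over the 13541 genes that filterByExpr kept (at least 10 counts, 15 in total), with TMM scaling, the cell line as a block, two-sided, Benjamini-Hochberg adjustment and a threshold of 0.05. The common dispersion was 0.149, a biological coefficient of variation of 38.6%. Pairing comes from the cell line given in the labels, each subline having been derived from the parental line beside it. DESeq2 1.42.0 and limma-voom (limma 3.58.1) were alternatives, and the test was tried on simulated data first. Standard errors came from the fitted fold change and its F statistic. Nothing in the labels says that a library was repeated, so the p-values measure the spread between the 3 pairs.

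Within a line no test was made: ratios carry 95% exact binomial (Clopper-Pearson) intervals, and PCR reads without molecular identifiers are not independent molecules. Sums were taken over CPM, and medians and counts over members that reached 2 CPM in either library of the line, with 0.5 CPM added. The members named are the polyadenylated list, the 12 other members with the highest mean CPM, and up to 4 in each direction with the most extreme ratios in all lines or in 1 line. Other members were named after their values were seen, where a count called for it. Genes of the other lists were named by mean CPM, except where stated. The members and lists were chosen with earlier results of these data known. The 13 listed small RNAs without a poly(A) tail had 0 matches and were not analysed here. An item of a marker list is not reported here.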

Additional observations from a re-analysis of the deposited data

Results flagged for a closer look

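The 2 blocks of histone genes and 7 named members stood apart between cell lines, because their ratio of resistant to parental level had an interval above 0 in 1 line and below 0 in another. With 1 library for each state of a line, none of these differences was tested. The flagged values are differences between 2 lines in the log2 ratio. For the summed polyadenylated list the ratio was higher in PC9 than in HCC827 by 0.92 and higher than in H1975 by 1.03, and for the 64 other members by 1.09 and 1.18.

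Among single members, HIST1H2AC differed by 0.70 between PC9 and HCC827 and by 0.82 between PC9 and H1975. HIST1H2BD, with more reads in PC9-GR than in PC9 and fewer in the other resistant sublines, differed by 1.89 from HCC827 and by 2.21 from H1975. HIST1H2BJ differed by 2.94 between PC9 and HCC827. Between PC9 and H1975 the difference was 1.63 for HIST1H2AG, 2.73 for HIST1H3E and 1.85 for HIST1H4H. For HIST2H4B it was 1.75 between PC9 and H1975 and 1.59 between HCC827 and H1975, but nearly all of its reads are shared with HIST2H4A, and the interval of their sum spanned 0 in HCC827 and PC9.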

How the results depend on the processing

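The count of members called over the 3 lines was 0 under all 10 alternatives, which included DESeq2, limma-voom, uniquely mapping reads and leaving out each pair. The main edgeR fit and limma-voom called 0.0% of all genes and DESeq2 called 0.428%, so this 0 is not particular to the members. Shares of all genes called under the other alternatives are not given here. The signs of the summed polyadenylated list, of the summed other members and of the medians held under every alternative run for them, all in CPM, and 99 of 112 sums, medians and counts were close to the main value. The sums by subtype were run under none of them. In HCC827 the log2 ratio of the polyadenylated sum was -0.39 with members of at least 1000 exon bases taken in place of the list. That of the other members was -0.79 with the same change, -0.73 with uniquely mapping reads, -0.74 with members at least 80% unique and -0.66 with library size alone. The median in PC9 was 0.63 with uniquely mapping reads. Counts at 2-fold or more in H1975 were 5 with library size alone and 5 with 0.25 CPM added, and with a mean of at least 2 CPM over the 6 libraries, an alternative added after the data were seen, they were 2 lower in HCC827 and 1 lower in H1975. With at least 5 CPM asked they were 1 lower in HCC827, 1 higher in PC9 and 1 lower in H1975. Counting exon and intronic reads together, added in the same way, kept every sum close to its main value.

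Of 196 alternative values of single fold changes, 18 in 9 members had the other sign, none of them called. Without the replicate block the log2 fold change was -0.039 for HIST1H3E, -0.16 for HIST1H4H and -0.32 for HIST3H2A, and with limma-voom it was -0.0098, -0.14 and -0.15. HIST1H4H was at -0.058 with library size alone. Leaving out 1 pair at a time gave -0.60 to 0.23 for HIST1H2AG, -0.92 to 0.23 for HIST1H2BD, -0.91 to 0.085 for HIST1H2BG, -1.09 to 0.34 for HIST1H2BJ, -0.56 to 0.82 for HIST1H3E, -0.61 to 0.35 for HIST1H4H, -0.14 to 1.94 for HIST2H2AA3, -0.60 to 0.063 for HIST2H2BE and -0.072 to 0.73 for HIST3H2A. The lowest values came without the PC9 pair. The cause was not tested in any of these cases. Depth limits members below about 2 CPM, where few reads stand behind a ratio.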
